A study of Homo sapiens with 7 samples.

Results

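The 50 and 200 nM DasR lines (late stage) were compared with the 10, 15 and 25 nM DasR lines (early stage). They are 5 of the 7 K562 lines whose RNA was sequenced, with 1 library for each line. K562, an established line from chronic myeloid leukemia, has the BCR::ABL1 fusion gene, and the labels name its cell type as erythroblast. DasR lines are K562 cells kept in culture with dasatinib, a tyrosine kinase inhibitor, while its concentration was raised step by step. The drug naive line and the DMSO vehicle line had no dasatinib, and they entered the fit as a control group so that their spread was used too. The lines come in series from 1 parental culture and each was sequenced a single time, so that the lines of a stage stand in for replicates and the spread within a stage includes dose. The study placed the lines in stages by clustering of these same libraries, so the tests below are not independent of the grouping.

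BCR::ABL1 is a constitutively active kinase that signals through the RAS and ERK pathway, STAT5 and PI3K, and dasatinib blocks it together with SRC family kinases. K562 cells can take on features of red cell precursors, with globin and heme synthesis, or of megakaryocytes, the cells that make platelets. Inhibition of BCR::ABL1 in these cells is known to favor hemoglobin synthesis, and activation of ERK to favor megakaryocyte features. The comparison asks which genes and functions part lines that grow at high doses from lines that grow at low ones.

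The early stage libraries at 10, 15 and 25 nM held 27808639, 27844799 and 20059656 counts. The late stage libraries held 20827519 (50 nM) and 21588772 counts (200 nM), the drug naive library 21007761 and the DMSO library 24037893. A total of 10452 genes reached 10 CPM (CPM is the usual scaling of a count to the library total) in at least 2 libraries and were tested. Values below are CPM scaled by the TMM method, and 3 counts in a library correspond to 0.107 to 0.149 CPM. A difference is late stage minus early stage on the log2 scale.

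Between the stages, 690 genes had higher and 638 had lower levels late than early at an FDR of 0.05, by the edgeR quasi-likelihood test after Benjamini-Hochberg correction. These are 6.6% and 6.1% of the genes tested. The median difference was 0.79 for the genes called higher and -0.78 for those called lower, and it was -0.01 over all genes tested. A difference of at least 1 was found for 249 of the genes called higher and 223 of those called lower. For all 1328 called genes both late stage lines lay outside the range of the 3 early stage lines. Without a test, the late stage lines lay above the early stage lines for 2762 genes (26.4%) and below them for 2816 genes (26.9%). The smallest FDR was 0.0167, shared by 129 genes, so that none passed the study's FDR of 0.005 by edgeR, where DESeq2 called 1135 genes and 3450 genes had an unadjusted p under 0.05 by edgeR. Without the 200 nM line edgeR called 0 genes at an FDR of 0.05, with 1975 genes at an unadjusted p under 0.05 and 922 called by DESeq2. Over all 7 libraries DESeq2 called 10.5% of genes higher and 10.5% lower, and limma-voom 6.56% and 6.51%. Every count of edgeR calls below rests on the 200 nM line, and calls are edgeR's unless another tool is named. Of the genes called lower 96 would not have passed the filter without the early stage lines, and of those called higher 33 not without the late stage lines, so that a difference was built into their choice.

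Among the 12 genes with the smallest p-values and a difference of at least 1 upward were the membrane genes EHD2 and STOM, the receptor IL10RA and the ETS factor ETV4. EHD2, a membrane ATPase found at caveolae (hg19 chr19:48216679-48246391, forward strand), was at 25.0, 20.5 and 24.8 CPM at 10, 15 and 25 nM, and at 64.6 and 79.0 CPM at 50 and 200 nM. The difference was 1.62 (SE 0.14, FDR 0.0167 by the edgeR quasi-likelihood test after Benjamini-Hochberg correction). The stages did not overlap, and both controls, at 116 and 101 CPM, were higher still. STOM, which encodes the membrane protein stomatin (chr9:124101265-124132582, reverse strand), was at 36.9, 31.8 and 56.7 CPM in the early stage lines and at 145 and 158 CPM in the late stage lines. Here the late stage lines also stood above the controls, at 47.3 and 46.4 CPM. IL10RA, the ligand-binding chain of the interleukin 10 receptor (chr11:117857085-117873752, forward strand), rose from 6.39, 5.99 and 8.16 CPM to 21.5 and 28.6 CPM, a difference of 1.87 (SE 0.20). ESRRB, an orphan nuclear receptor, had the largest difference of the 12, at 2.19 (SE 0.25), from 5.63, 4.31 and 7.17 CPM to 21.4 and 30.5 CPM. Others were PPP1R16B, a regulatory subunit of protein phosphatase 1, KIAA1324L, the noncoding DLGAP1-AS2, the cochaperone DNAJC12, NME7 and the glycerol kinase GK. Their differences lay between 1.21 (NME7) and 2.00 (GK). DLGAP1-AS2 is an antisense gene and the strand setting of the counting is not given in the sources used here, so its reads cannot be told apart from those of an overlapping partner.

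RELN and CHST3 were the widest of the 12 genes called lower by the same rule. RELN, which encodes the secreted matrix protein reelin (chr7:103111828-103630105, reverse strand), was at 811, 1352 and 887 CPM at 10, 15 and 25 nM. It was at 182 and 106 CPM at 50 and 200 nM, a difference of -2.82 (SE 0.33, FDR 0.0167 by the edgeR quasi-likelihood test after Benjamini-Hochberg correction). The late stage lines thus lay below the controls as well, at 288 and 222 CPM. CHST3, a chondroitin sulfotransferase (chr10:73724153-73773316, forward strand), was at 24.5, 52.8 and 32.8 CPM in the early stage lines and at 2.69 and 0.960 CPM in the late stage lines, a difference of -4.33 (SE 0.51). Its controls held 1.42 and 1.65 CPM, near the 200 nM line. MYBL2, a transcription factor that drives cell cycle genes (chr20:42295659-42345135, forward strand), had the smallest p of the 12 with a modest difference of -1.06 (SE 0.11), from 238, 290 and 248 CPM to 131 and 117 CPM. Both controls, at 184 and 193 CPM, lay between the stages. The remaining genes were the endosomal adaptor APPL1, FAM175A, a subunit of a BRCA1 complex, CPNE1, the beta tubulin TUBB2B, the pseudogene CYP4F35P, the calcium channel subunit CACNA2D2, the transporter ABCA8, the cohesin subunit STAG1 and the zinc finger gene ZNF33B. Their differences ran from -1.0 (ZNF33B) to -2.56 (CACNA2D2). Reads of TUBB2B and CYP4F35P can be shared with near-identical copies, so their values are uncertain. CHST3, CYP4F35P and CACNA2D2 passed the filter only through the early stage lines.

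**Figure D1:**
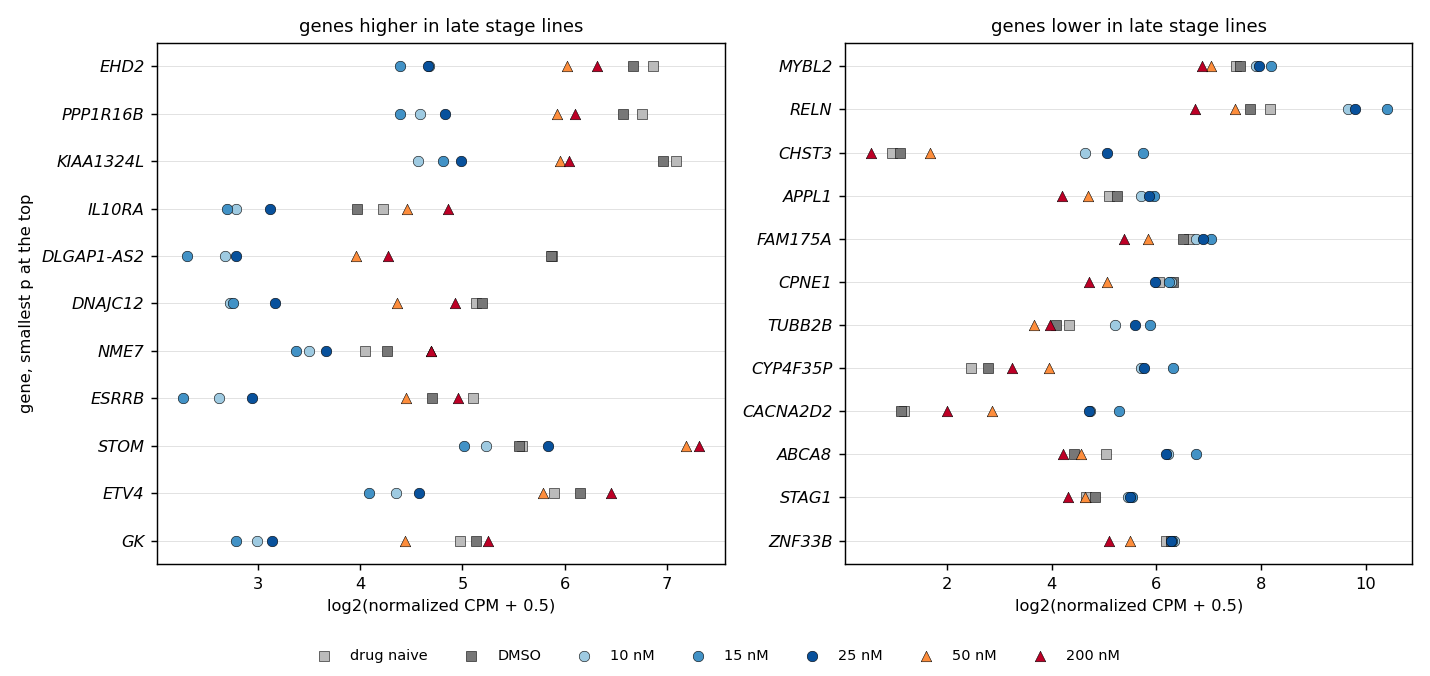
Normalized CPM on a log2 scale (with 0.5 added, x axis) of the genes named above that were called higher (left) and lower (right), with 1 point per line and no error bars since each line is 1 library. For all of them both late stage points (triangles) lie outside the range of the early stage points (circles), and EHD2 runs from 20.5 CPM at 15 nM to 79.0 CPM at 200 nM.

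Genes of the amino acid response were higher in the late stage lines, with 18 of 39 tested members called higher (46.2%, against 6.6% of all genes) and none called lower by edgeR, DESeq2 or limma-voom (1 had an unadjusted p under 0.05 by edgeR). The 44 genes of this list are those that the transcription factor ATF4 is known to induce when amino acids are short or the endoplasmic reticulum is stressed. Their median difference was 0.54, and the summed level was 4367, 4286 and 4603 CPM at 10, 15 and 25 nM, 5358 CPM at 50 nM and 6646 CPM at 200 nM. The controls were far above both stages, at 12464 and 12020 CPM. Of the enzymes of amino acid and folate metabolism 8 of 14 were called higher, and ASNS, which makes asparagine, had the smallest p of the list. ASNS was at 184, 174 and 197 CPM in the early stage lines and at 257 and 296 CPM in the late stage lines. The difference of 0.58 (SE 0.10, FDR 0.0184 by the edgeR quasi-likelihood test after Benjamini-Hochberg correction) was small beside the controls, at 923 and 942 CPM. CTH, of cysteine synthesis, rose by 0.94 (SE 0.18) and SHMT2, of serine and folate metabolism, by 0.40 (SE 0.08). SLC38A2, an amino acid carrier, was at 231, 173 and 238 CPM and then at 386 and 654 CPM, so that the 200 nM line reached the controls (653 and 670 CPM). DDIT4, an inhibitor of mTORC1, was at 119, 140 and 145 CPM and then at 195 and 504 CPM. The gene ATF4 itself was not called, at 316, 338 and 350 CPM against 345 and 376 CPM. Among tRNA synthetases, many of which the same factor induces, 5 of 40 were called higher (12.5%, against 6.6% of all genes) and none lower by any of the 3 tools (none at an unadjusted p under 0.05 by edgeR), led by WARS with a difference of 0.92 (SE 0.15). The count of 18 for the amino acid response list rests on the 200 nM line. With the 5 DasR libraries alone in the fit it fell to 6, where 389 of all genes were called higher instead of 690. DESeq2 called 23 of the list higher (59.0%, against its 10.5% of all genes) and limma-voom 13 (33.3%, against 6.56%).

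The promoter of ASNS is shown because it holds the composite element, written TGATGNAAN, that ATF4 and its partners are known to bind. The capitals mark the element, 68 bases before the start. The sequence is from RefSeq on GRCh38.p14 (chr7:97872423-97872521, reverse strand), not the hg19 build of the counts.
ASNS: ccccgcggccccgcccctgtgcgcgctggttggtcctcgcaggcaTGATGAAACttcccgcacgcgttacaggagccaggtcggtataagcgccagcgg
Searched on both strands in the 250 bases before the start, these letters were in 5 of the 31 tested members with a promoter in the table (16.1%). They were in 1.22% of the 8339 promoters of tested genes and in 3.18% of all 27305 promoters. The other members with a match were GOT1, CHAC1, ATF3 and MTHFD1L, none of which was called, so that 1 of 13 members called higher held the letters.

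Megakaryocyte and platelet genes were called higher in 9 of 20 tested members (45%, against 6.6% of all genes) and lower in 1 (5%, against 6.1%), with a median difference of 0.50. DESeq2 called 10 higher (50%) and 2 lower (10%), against its 10.5% of all genes in each direction. With limma-voom 8 were higher (40%, against 6.56%) and 3 lower (15%, against 6.51%). Of the 20, 3 passed the filter only through the early stage lines and 1 only through the late stage lines. The fibrinogen receptor subunit ITGA2B (CD41; chr17:42449548-42467017, reverse strand) was at 13.4, 5.92 and 13.2 CPM at 10, 15 and 25 nM and at 56.8 and 97.9 CPM at 50 and 200 nM. Its difference of 2.84 (SE 0.37, FDR 0.0167 by the edgeR quasi-likelihood test after Benjamini-Hochberg correction) brought the late stage lines to the level of the controls, at 65.8 and 51.9 CPM. The ATP receptor P2RX1 was at 1.08, 0.214 and 5.47 CPM and then at 25.4 and 57.7 CPM, a difference of 4.29 (SE 0.91). P2RY1, an ADP receptor of platelets, was at 7.90, 1.46 and 16.8 CPM and then at 65.4 and 67.2 CPM, above its controls at 33.8 and 29.2 CPM. SRGN, the proteoglycan of secretory granules, was at 33.7, 8.09 and 33.9 CPM and then at 111 and 153 CPM. In these genes the 15 nM line was the lowest of all and the early stage lines were widely spread, so that their standard errors were large. The others called higher were the integrin activator FERMT3, the prostaglandin receptor PTGER3, the granule protein NBEAL2, the adaptor GRAP2 and the factor MEIS1. RUNX1, a factor that megakaryocytes need, was the member called lower, with 171, 187 and 169 CPM in the early and 122 and 120 CPM in the late stage lines.

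Several defining megakaryocyte genes stayed near 0 in every line. PF4 had at most 0.0490 CPM, GP9 at most 0.0498 CPM, GP1BB was at 0 throughout, and PPBP reached no more than 0.294 CPM. ITGB3, the partner of ITGA2B, was below the filter with 6.35, 7.92 and 6.37 CPM in the early and 8.12 and 4.71 CPM in the late stage lines. Summed over the 8 marker genes the level was 57.5, 18.0 and 28.3 CPM and then 79.6 and 109 CPM. VWF, which was not called, gave 37.1 CPM of the sum at 10 nM, and ITGA2B gave 56.8 and 97.9 CPM of it in the late stage lines. The part of such cells in the differences was not tested. The 14 erythroid markers went the other way in their sum, with 12392, 13704 and 10855 CPM in the early and 7138 and 5131 CPM in the late stage lines. The controls were lower still, with sums of 4463 and 3918 CPM, so that the late stage lines lay between the controls and the early stage lines. In 11 of the 14 markers (78.6%, against 26.9% of all genes) both late stage lines lay below the early stage lines and in 2 (14.3%, against 26.4%) above. Of the 14 markers, TAL1 and EPOR were called lower (14.3%, against 6.1% of all genes) and GATA1 was called higher (7.14%, against 6.6%). The median difference was -0.67. Markers of fibroblasts did not pass the filter and summed to between 6.0 and 19.5 CPM over the 7 lines. The endothelial markers summed to 1.95, 0.285 and 4.73 CPM in the early and 13.4 and 11.8 CPM in the late stage lines, of which PECAM1 gave 12.1 and 10.7 CPM in the late stage lines. PECAM1 passed the filter only through the late stage lines and was not called, and CDH5 was at 0 throughout. The granulocyte and monocyte markers summed to 110, 28.5 and 46.1 CPM and then to 99.0 and 101 CPM, most of it from LYZ, which was not called, with MPO and ELANE at no more than 0.123 CPM. Epithelial markers summed to 120, 108 and 105 CPM and then to 111 and 118 CPM, nearly all from KRT19 and EPCAM, neither called. The part of such cells was not tested either. Of the lymphocyte markers only CD3D passed, at 3.61, 2.71 and 8.46 CPM and then 22.6 and 29.2 CPM. CD3D was called higher, with a difference of 2.41, and it passed only through the late stage lines. CD2 and MS4A1 had at most 0.108 CPM. Bulk RNA does not tell fewer cells of a kind from less RNA per cell.

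Integrins and adhesion genes were called higher in 8 of 20 tested members (40%, against 6.6% of all genes) and lower in none by any of the 3 tools (none at an unadjusted p under 0.05 by edgeR). ITGA5, the fibronectin receptor subunit, was at 88.0, 63.4 and 97.4 CPM in the early and 208 and 293 CPM in the late stage lines, a difference of 1.59 (SE 0.24). ITGB5 was at 21.2, 19.3 and 36.1 CPM and then at 70.3 and 73.7 CPM, above both controls. TLN1, which couples integrins to actin, was at 898, 541 and 736 CPM and then at 1448 and 1298 CPM. VCL, PXN, ICAM1 and the 2 genes shared with the platelet list, ITGA2B and FERMT3, made up the rest. Without the 200 nM line the counts of both lists were 0.

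Feedback and target genes of the ERK pathway were called higher in 8 of 20 tested members (40%, against 6.6% of all genes), with a median difference of 0.33. None was called lower by edgeR (1 had an unadjusted p under 0.05). DESeq2 and limma-voom each called 1 lower (5%, against their 10.5% and 6.51% of all genes). The listed genes comprise early targets, the Sprouty and Spred inhibitors and the phosphatases that ERK induces against itself. ETV4, an ETS factor, was at 19.8, 16.5 and 23.3 CPM in the early and 54.8 and 86.9 CPM in the late stage lines. The related ETV1 and ETV5 had differences of 1.66 (SE 0.30) and 0.77 (SE 0.15). The inhibitor SPRY4 was at 11.3, 6.95 and 16.6 CPM and then at 41.3 and 52.2 CPM, a difference of 2.02 (SE 0.31, FDR 0.0170 by the edgeR quasi-likelihood test after Benjamini-Hochberg correction). CCND1, which encodes cyclin D1, was at 2.38, 1.28 and 15.0 CPM and then at 43.2 and 105 CPM, above both controls at 17.8 and 13.1 CPM. Its 25 nM line was far above the other early stage lines, and the standard error was 0.91 for a difference of 3.62. IER2, SPRED2 and FOSL1 were also called. The immediate early gene EGR1 had 77.2, 107 and 138 CPM and then 198 and 451 CPM and was not called (FDR 0.0558 by the edgeR quasi-likelihood test after Benjamini-Hochberg correction). None of the 3 phosphatases tested was called by edgeR, and DUSP6 was below the filter with at most 1.33 CPM. The count was 0 without the 200 nM line.

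Among genes of fatty acid synthesis 6 of 16 were called higher (37.5%, against 6.6% of all genes) and none lower by any of the 3 tools (1 at an unadjusted p under 0.05 by edgeR). FADS1, a desaturase of long fatty acids, was at 325, 181 and 308 CPM in the early and 871 and 1765 CPM in the late stage lines, a difference of 2.28 (SE 0.35). ACSL4, which activates long-chain fatty acids, was at 61.9, 43.8 and 64.7 CPM and then at 146 and 125 CPM. ACLY, ME1, ACSL1 and ELOVL5 had differences between 0.49 and 1.0, and without the 200 nM line the count of the list was 0.

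Genes of the red cell membrane and red cell metabolism were lower in the late stage lines, with 10 of 34 tested members called lower (29.4%, against 6.1% of all genes). Another 2 were called higher (5.88%, near the 6.6% of all genes). The median difference was -0.68. Summed over the 37 listed genes the level was 7401, 7518 and 6735 CPM in the early stage lines, 5887 CPM at 50 nM and 4581 CPM at 200 nM. The controls summed to 5043 and 4739 CPM. In 23 of the 34 both late stage lines lay below all early stage lines (67.6%, against 26.9% of all genes) and in 6 above (17.6%, against 26.4%). Of the 34, 3 passed the filter only through the early stage lines, so that a lower late level was built into their choice. None of these 3 was called lower. PKLR, the pyruvate kinase of red cells, was at 88.7, 129 and 71.7 CPM at 10, 15 and 25 nM and at 31.6 and 26.0 CPM at 50 and 200 nM. Its difference of -1.74 (SE 0.25, FDR 0.0167 by the edgeR quasi-likelihood test after Benjamini-Hochberg correction) took both late stage lines below the controls, at 71.8 and 70.7 CPM. BPGM, which makes 2,3-bisphosphoglycerate, was at 52.0, 85.3 and 56.3 CPM and then at 30.2 and 22.5 CPM. The blood group gene RHCE was at 51.5, 80.7 and 45 CPM and then at 20.2 and 5.81 CPM, and ERMAP at 171, 266 and 189 CPM and then at 76.6 and 24.2 CPM. In both the 200 nM line was well below the 50 nM line and below the controls. The glucose transporter SLC2A1, KEL, TMOD1, ANK1, GYPE and ICAM4 were the other members called lower. STOM and TMCC2 were the members called higher. GYPE and RHCE have near-identical paralogs, so that their counts are uncertain. SLC4A1, the anion exchanger, was not called, with 139, 64.0 and 57.5 CPM in the early stage lines, 53.2 CPM at 50 nM and 2.83 CPM at 200 nM.

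Heme synthesis genes were called lower in 6 of 24 tested members (25%, against 6.1% of all genes) and higher in 1 (4.17%, against 6.6%). Of the 9 enzymes 4 were called lower, PPOX, FECH and ALAD among them. PPOX was at 88.5, 125 and 89.8 CPM in the early and 41.7 and 19.8 CPM in the late stage lines, a difference of -1.72 (SE 0.32). FECH, which inserts iron into the porphyrin ring, was at 159, 167 and 143 CPM and then at 108 and 79.9 CPM. The mitochondrial carriers ABCB10 and SLC25A39 were lower too, and GLRX5, of iron-sulfur cluster assembly, was higher by 0.45 (SE 0.10). ALAS2, the rate-limiting enzyme of the red cell, was at 378, 510 and 300 CPM, then at 124 CPM and at 12 CPM. The gap between the late stage lines was wide, and it was not called (FDR 0.0849 by the edgeR quasi-likelihood test after Benjamini-Hochberg correction). The 7 globin genes tested had negative differences without exception, with a median of -0.83. None was called by edgeR, and 5 were lower at an unadjusted p under 0.05, as were 1733 of all 10452 genes tested. DESeq2 and limma-voom each called 5 of the 7 lower (71.4%, against their 10.5% and 6.51% of all genes). HBZ was at 1872, 2836 and 1914 CPM, at 660 CPM at 50 nM and at 59.3 CPM at 200 nM, which is near the controls, at 61.3 and 73.4 CPM. HBA1 and HBA2, which are near-identical in sequence, had differences of -1.73 and -1.85. HBG1 and HBG2, a similar pair, had -0.64 and -0.83. Without the 200 nM line the counts of calls among red cell and heme genes were 0.

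Of 26 erythroid transcription factors and their repressors, 4 were called higher (15.4%, against 6.6% of all genes) and 3 lower (11.5%, against 6.1%). GATA2, which is active in progenitors and is replaced by GATA1 as red cells mature, was at 62.7, 45.1 and 71.2 CPM in the early and 138 and 208 CPM in the late stage lines, a difference of 1.54 (SE 0.22). GATA1 had a smaller difference in the same direction, 0.49 (SE 0.12). TAL1, at 303, 324 and 302 CPM and then at 229 and 154 CPM, and FOXO3, with a difference of -0.82 (SE 0.17), were lower. KLF1, an activator of globin genes, was not called, with a difference of -0.29. The transferrin gene TF fell from 20.6, 37.4 and 21.2 CPM to 4.47 and 2.19 CPM, while the receptor TFRC was not called.

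Promoters of 3 red cell genes called lower are shown because each holds AGATAA, the core letters bound by GATA factors. Capitals mark the letters. They are from RefSeq on GRCh38.p14, each on the reverse strand and read toward the gene, for PKLR (chr1:155301439-155301514), GYPE (chr4:143905560-143905649) and KEL (chr7:142962375-142962470).
PKLR: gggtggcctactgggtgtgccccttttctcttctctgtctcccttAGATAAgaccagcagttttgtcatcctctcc
GYPE: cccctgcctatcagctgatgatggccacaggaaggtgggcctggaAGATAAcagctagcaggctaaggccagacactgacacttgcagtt
KEL: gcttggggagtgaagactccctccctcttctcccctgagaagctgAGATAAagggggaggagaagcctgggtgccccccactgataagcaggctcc
On either strand of the 250 bases before the start, the letters were in 5 of 26 tested red cell members with a promoter (19.2%) and in 3 of the 9 called lower. They were in 4.13% of the promoters of tested genes and in 9.37% of all promoters. Among heme synthesis genes they were in 2 of 20, neither of them called.

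**Figure D2:**
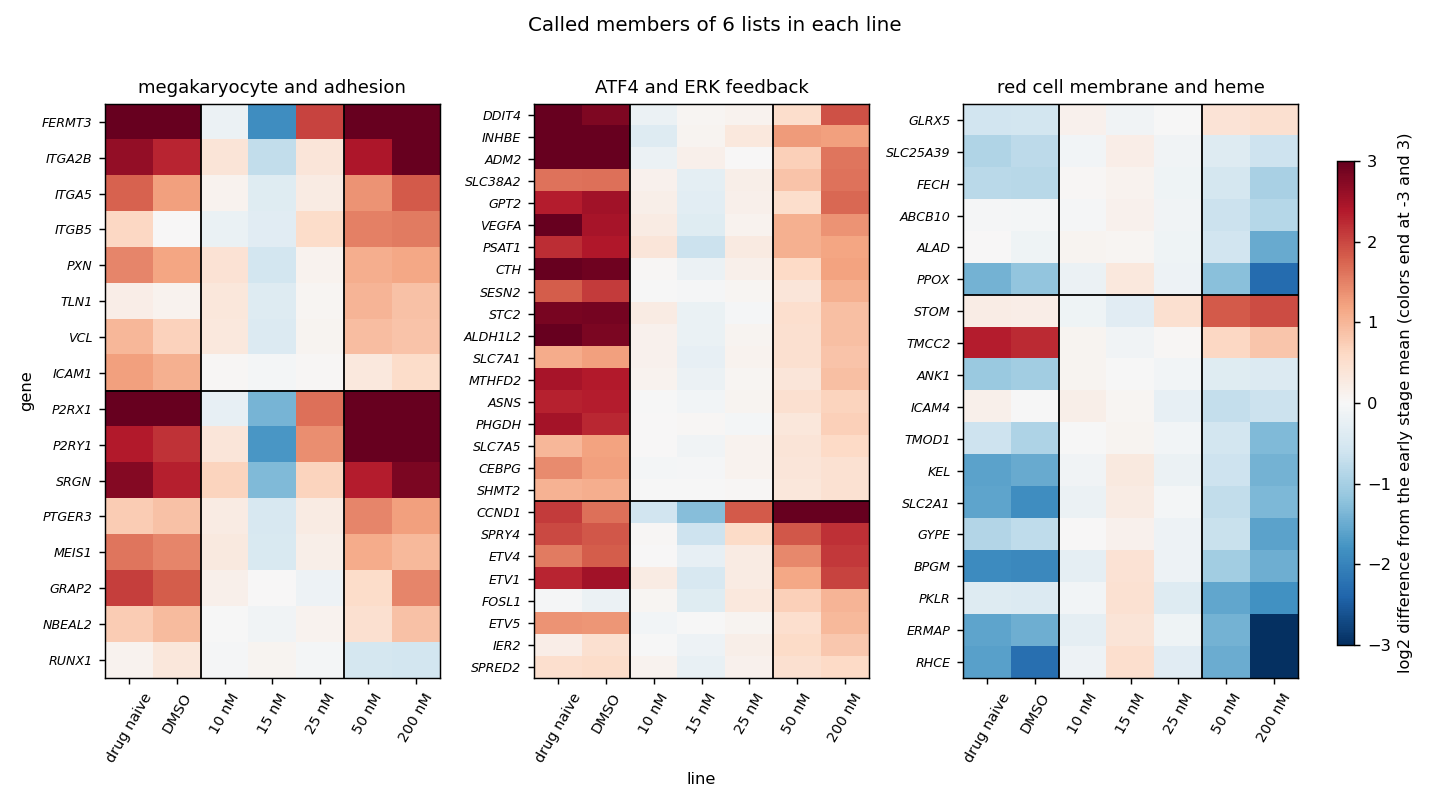
Log2 difference of each line from the early stage mean (color, from -3 in blue to 3 in red, with larger values drawn at the end colors) for called members of 6 lists, 1 row per gene and 1 column per line, in the order controls, early stage, late stage. Late stage columns are red for megakaryocyte, adhesion, ATF4 and ERK genes except RUNX1, and blue for red cell and heme genes except STOM, TMCC2 and GLRX5, with the 200 nM column often the deeper.

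Kinases that dasatinib binds and their adaptors were called higher in 6 of 31 tested members (19.4%, against 6.6% of all genes) and lower in 2 (6.45%, against 6.1%). YES1, a SRC family kinase, was at 201, 154 and 208 CPM in the early and 352 and 426 CPM in the late stage lines, a difference of 1.05 (SE 0.15). SRC itself had low levels, at 9.67, 6.74 and 5.92 CPM and then 11.7 and 18.6 CPM. The adaptor DOK2 was at 13.8, 8.45 and 13.4 CPM and then at 33.0 and 39.1 CPM, well above the controls at 5.29 and 4.69 CPM. LYN was not called, with a difference of 0.31, and EPHB4 and MAPK14 were lower. STAT3 was at 121, 96.7 and 126 CPM and then at 211 and 276 CPM, a difference of 1.09 (SE 0.16), while STAT5A and STAT5B were not called. In the list of STAT factors and STAT5 targets 4 of 21 tested members were called higher (19.0%, against 6.6% of all genes). Called lower were 2 (9.52%, against 6.1%). TRIB2 and EPOR, the erythropoietin receptor, were lower. The levels of BCR and ABL1 include reads of the fusion, which gene counts do not separate. ABL1 was at 2566, 2006 and 1683 CPM in the early and 1391 and 906 CPM in the late stage lines, and was not called (FDR 0.0507 by the edgeR quasi-likelihood test after Benjamini-Hochberg correction).

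Of 28 genes of the BCL2 family and apoptosis, 7 were called higher (25%, against 6.6% of all genes) and 2 lower (7.14%, against 6.1%). BCL2L11, which encodes the death-promoting protein BIM, was at 72.7, 69.2 and 67.3 CPM in the early and 42.3 and 32.7 CPM in the late stage lines. Its difference was -0.89 (SE 0.12, FDR 0.0167 by the edgeR quasi-likelihood test after Benjamini-Hochberg correction), and the 200 nM line matched the controls, at 33.0 and 32.3 CPM. The survival gene MCL1 was higher by 0.55 (SE 0.11) and CFLAR, an inhibitor of caspase 8, by 1.16 (SE 0.17). The inhibitor of apoptosis BIRC2 was lower, and the death receptors TNFRSF10A and TNFRSF10B, the caspases CASP9 and CASP10 and cytochrome c, CYCS, were higher, so that the calls went both ways in function. BCL2L1 was not called, with a difference of -0.05.

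Hedgehog and Wnt receptors and their partners were called lower in 6 of 20 tested members (30%, against 6.1% of all genes) and higher in 1, ROR2 (5%, against 6.6%). KIF7, FZD3 and SMO, which make up 3 of the 6, passed the filter only through the early stage lines where they were high, so that the count is no support for the group. The Hedgehog regulator KIF7 was at 18.4, 34.1 and 25.2 CPM in the early and 6.53 and 3.98 CPM in the late stage lines, a difference of -2.30 (SE 0.33). FZD3, a Wnt receptor, was at 19.3, 17.2 and 18.7 CPM and then at 7.45 and 8.32 CPM, still far above the controls at 0.490 and 0.206 CPM. LGR4, PTCH1, FZD5 and SMO were the others. SMO and FZD3 are also candidates that the study named from these libraries, so that their part of the count is not independent evidence. The count was 0 without the 200 nM line.

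Of 14 efflux and uptake transporters 3 were called lower (21.4%, against 6.1% of all genes) and 1 higher (7.14%, against 6.6%), and SLC22A4, among the lower, passed the filter only through the early stage lines. ABCB6, SLC29A1 and SLC22A4 were lower, with differences of -1.02, -0.63 and -1.09. ABCG2, an efflux pump that carries dasatinib, was at 514, 3099 and 3084 CPM, at 199 CPM at 50 nM and at 2.38 CPM at 200 nM. It was not called, with a difference of -4.47 (SE 1.67, FDR 0.116 by the edgeR quasi-likelihood test after Benjamini-Hochberg correction). Its neighbor PPM1K on chromosome 4, a mitochondrial phosphatase, was called, with a difference of -4.26 (SE 1.05). Of the 14 genes around ABCG2 that were tested edgeR called PPM1K alone (7.14%, near the 6.1% of all genes called lower). DESeq2 and limma-voom each called 3 lower (21.4%, against their 10.5% and 6.51% of all genes). Of the 14, 3 passed the filter only through the early stage lines, so that a lower late level was built into their choice. These shares are therefore no support for the group.

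**Figure D3:**
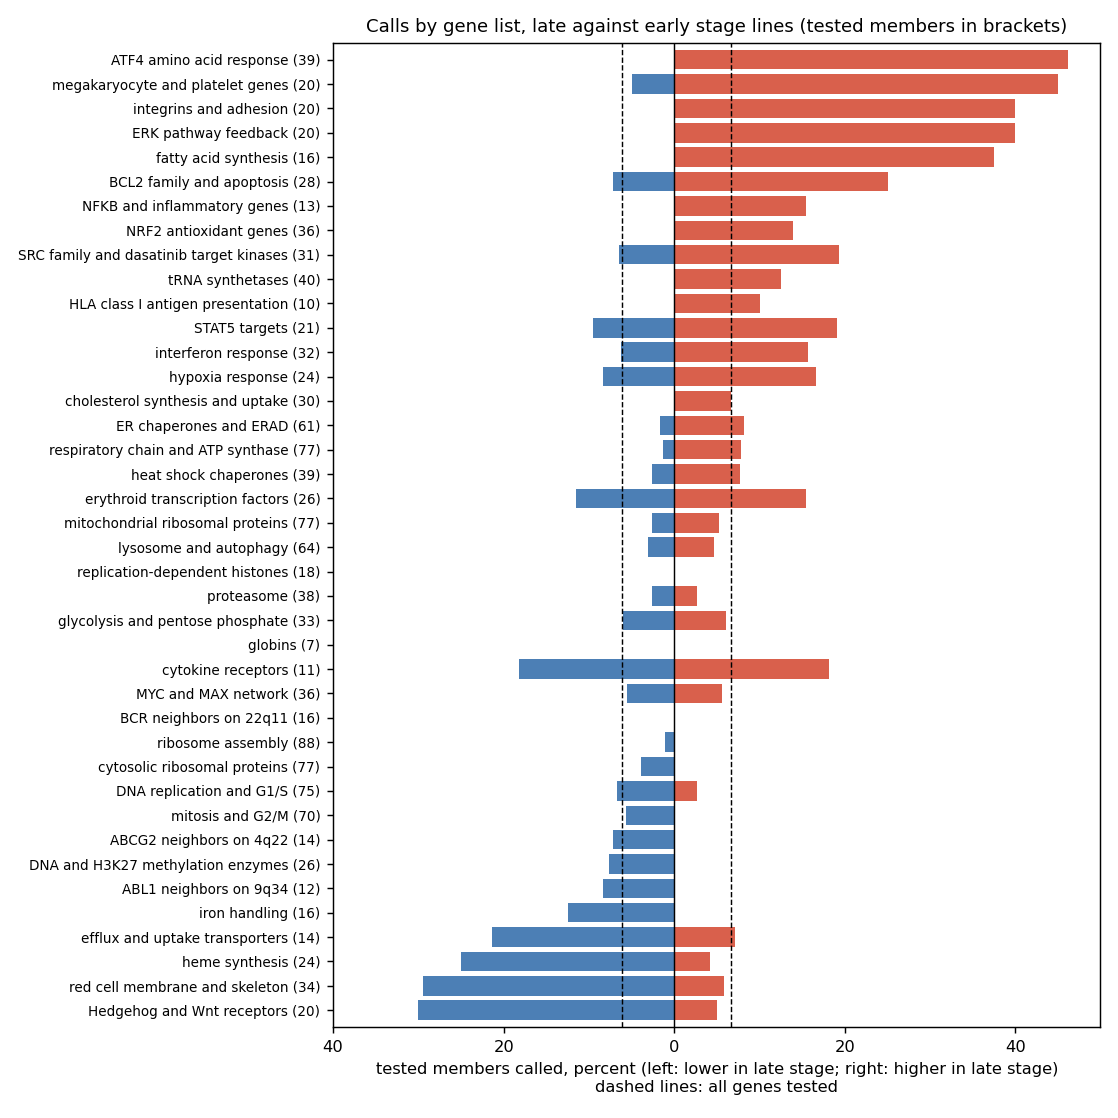
Percent of the tested members of each list called higher (right, red) or lower (left, blue) in the late stage lines, with the number tested in brackets and dashed lines at the 6.6% and 6.1% of all genes tested. The ATF4 list reaches 46.2% higher and the red cell membrane list 29.4% lower, while ribosome assembly has 1 member of 88 called.

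In lists of growth functions the shares called by edgeR were close to or below those of all genes (6.6% higher, 6.1% lower). Of 88 ribosome assembly genes edgeR called 1 lower and none higher (4 had an unadjusted p under 0.05 upward), and the median difference was -0.02. DESeq2 called 1 of them higher (1.14%) and 3 lower (3.41%), against its 10.5% of all genes in each direction. MYC targets and partners had 2 of 36 called in each direction (5.56%). MYC itself was not called, at 285, 263 and 276 CPM in the early and 243 and 260 CPM in the late stage lines. Of 70 genes of mitosis 4 were called lower (5.71%, near the 6.1% of all genes), namely MYBL2, TPX2, NUSAP1 and KIF23. All 4 lie on chromosome 15 or 20. Both late stage lines lay below the early stage lines in 27 of the 70 (38.6%, against 26.9% of all genes) and above them in 11 (15.7%, against 26.4%). None of 18 histone genes of S phase was called by edgeR, DESeq2 or limma-voom (4 were lower at an unadjusted p under 0.05 by edgeR). Both late stage lines lay below the early stage lines in 8 of the 18 (44.4%, against 26.9% of all genes) and above them in 0 (against 26.4%). Of the 18, 1 passed the filter only through the early stage lines. Of 75 genes of DNA replication and G1/S 5 were called lower (6.67%), 2 of them on chromosome 15 or 20, and 2 higher (2.67%). Both late stage lines lay below the early stage lines in 28 (37.3%, against 26.9% of all genes) and above them in 13 (17.3%, against 26.4%). DESeq2 called 12 of these 75 (16%) and 11 of the 70 mitosis genes (15.7%) lower, against its 10.5% of all genes. Of 38 proteasome genes 1 was called in each direction (2.63%), the lower one on chromosome 15 or 20. Of 77 cytosolic ribosomal protein genes 3 were called lower (3.90%), 2 of them on chromosome 15 or 20. In 29 of these 77 genes (37.7%, against 26.9% of all genes) both late stage lines lay below the early stage lines and in 6 (7.79%, against 26.4%) above.

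A part of the genes called lower lay close together on the genome, which the comparison did not use. Chromosomes 15 and 20 were singled out after their values were seen. On chromosome 15, 83 of 328 tested genes were called lower (25.3%) and 5 higher, and the median difference of all its tested genes was -0.40. On chromosome 20, 94 of 271 were called lower (34.7%) and 4 higher, and the median was -0.33. The medians of the other chromosomes lay between -0.20 (chromosome 21) and 0.13 (chromosome 4), with shorter stretches within them. Both chromosomes held 177 of the 607 genes called lower that have a position (29.2%) but 5.94% of the genes tested. Outside them 430 of 9487 genes were called lower (4.53%) and 676 higher (7.13%).

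In runs of 20 neighboring tested genes, the lower level covered chromosome 15 almost whole, where all 16 runs had a negative median and 14 were below -0.2. On other chromosomes some runs also lay away from 0, though none was as deep as the lowest run of chromosome 15, at -0.55. Among them were 5 runs below -0.2 on chromosome 7 (lowest -0.40) and 6 on chromosome 17 (lowest -0.32). Runs above 0.2 numbered 3 on chromosome 7 (highest 0.44) and 6 on chromosome 4 (highest 0.40). On chromosome 20 the lower level began at a point. The 4 runs from C20orf96 to ACSS1 had medians between -0.11 and 0.02, and the 9 runs from ENTPD6 to ZGPAT (hg19 chr20:25176329-62367494) between -0.30 and -0.53. Both late stage lines showed this at a similar depth. Against the mean of the controls, the median of chromosome 20 was 0.16, 0.16 and 0.02 at 10, 15 and 25 nM and -0.28 and -0.32 at 50 and 200 nM. That of chromosome 15 was -0.32, 0.03 and -0.11 in the early stage lines, so that the 10 nM line was already low, and -0.49 and -0.59 in the late stage lines. Genes named above that lie on these chromosomes and were called lower are MYBL2, CPNE1 and TPX2 on 20 and KIF7, NUSAP1 and KIF23 on 15, while PPP1R16B and SRC on 20 were called higher. Of the red cell and heme genes 1 of 34 and 2 of 24 tested members lie there, none of them called lower. Copy number was not measured in these libraries and its part was not tested.

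On chromosome 22 the first 3 runs, from XKR3 to RGL4 (hg19 chr22:17264302-24059543), set the 200 nM line apart from the 50 nM line. Their medians against the early stage mean were -0.09, -0.14 and -0.12 at 50 nM and -0.62, -0.88 and -1.09 at 200 nM, and edgeR called none of their genes. Of the 16 tested genes listed around BCR 4 were lower at an unadjusted p under 0.05 by edgeR, as were 1733 of all 10452 genes tested. DESeq2 called 4 of the 16 lower (25%, against its 10.5% of all genes) and limma-voom 2 (12.5%, against 6.51%). BCR lies in this stretch, at 1384, 1089 and 932 CPM in the early stage lines, 757 CPM at 50 nM and 457 CPM at 200 nM. PRAME, a tumor antigen gene, was at 3267, 3675 and 3306 CPM, at 3096 CPM and at 1249 CPM. Here the 50 nM line was close to the early stage range and the 200 nM line stood alone below it and below the controls, at 1764 and 1796 CPM.

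**Figure D4:**
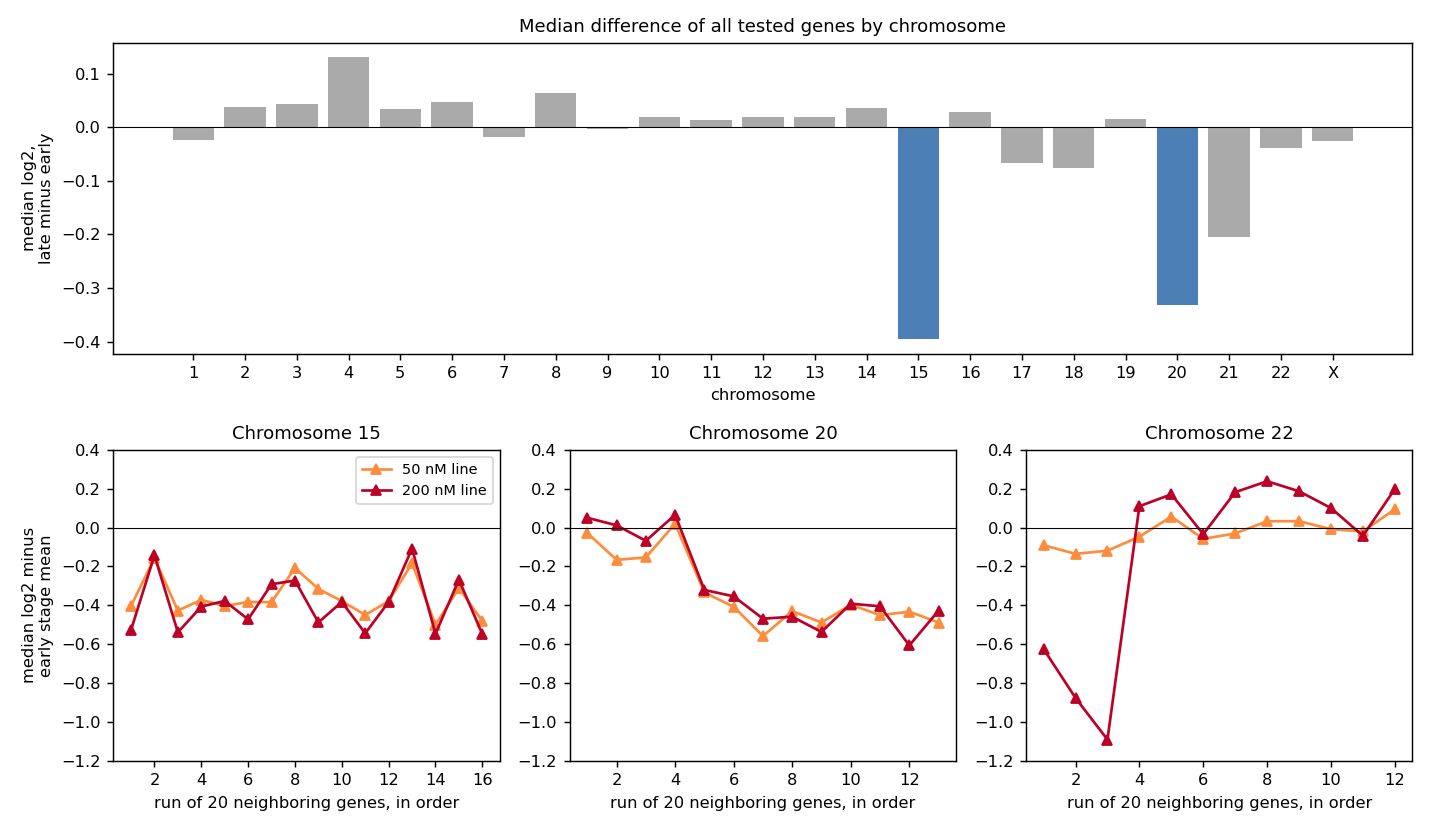
Median log2 difference of all tested genes by chromosome (top, chromosomes 15 and 20 in blue) and, below, the median of each late stage line against the early stage mean in runs of 20 neighboring genes, in order along chromosomes 15, 20 and 22. Both lines step down along chromosome 20 after the first 4 runs, while on chromosome 22 the first 3 runs fall to -1.09 in the 200 nM line and to no less than -0.14 in the 50 nM line.

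The late stage lines were not alike in how far they had moved. For the 690 genes called higher the median difference from the early stage mean was 0.66 at 50 nM and 0.88 at 200 nM, and 590 of them (85.5%) were farther at 200 nM. For the 638 called lower it was -0.63 and -0.92, with 550 (86.2%) farther at 200 nM. With 1 library for each line these are descriptions. Among all genes tested, 266 were at least 2-fold above the early stage mean in both lines, 38 at 50 nM only and 167 at 200 nM only. In the other direction 170 were at least 2-fold below it in both, 31 at 50 nM only and 345 at 200 nM only, and 3 moved in opposite directions.

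Among all genes tested, ABCG2 had the widest gap between the late stage lines, followed by CPVL, a carboxypeptidase, at 58.3 CPM at 50 nM and 0.914 CPM at 200 nM. RBM47, an RNA binding protein, was at 0.938, 0.392 and 0.448 CPM in the early stage lines, at 1.54 CPM at 50 nM and at 14.5 CPM at 200 nM. TREML2, an immune receptor, was at 0.361, 0.321 and 0.299 CPM, at 0.625 CPM and at 18.2 CPM. Both were called higher, with differences of 3.73 (SE 0.85) and 4.82 (SE 1.16), although most of the difference came from the 200 nM line. Their controls were at 23.6 and 20.2 CPM (RBM47) and at 13.7 and 17.0 CPM (TREML2). PAPSS1, of sulfate activation, was at 54.0, 23.5 and 27.3 CPM, at 55.9 CPM and at 2.93 CPM, and it was not called (FDR 0.872 by the edgeR quasi-likelihood test after Benjamini-Hochberg correction). PROX1, a homeobox factor, was at 27.5, 38.8 and 32.6 CPM, at 8.26 CPM and at 0.0914 CPM.

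**Figure D5:**
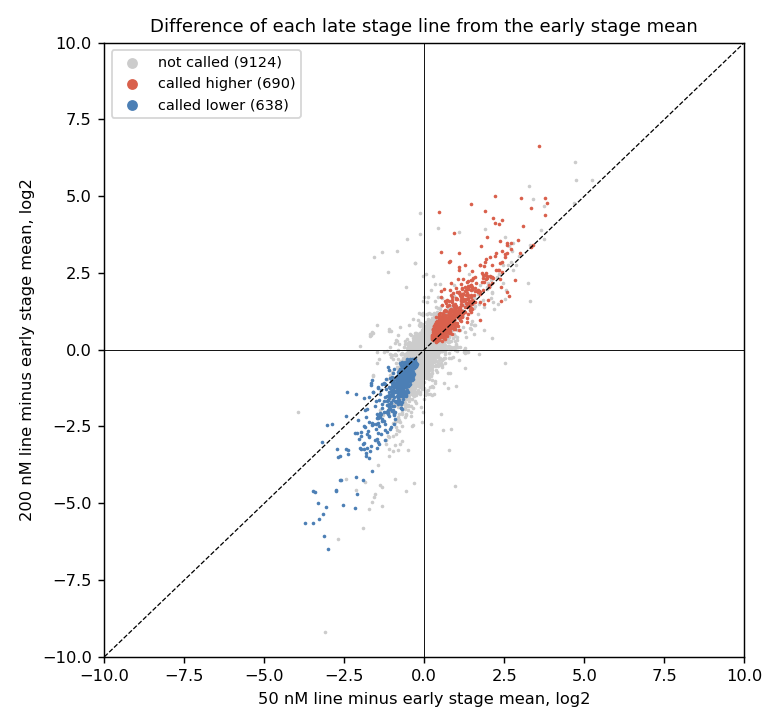
Log2 difference from the early stage mean of the 50 nM line (x axis) and the 200 nM line (y axis) for each of the 10452 genes tested, with 690 called higher in red, 638 called lower in blue and the line of equal difference dashed. Most called genes lie farther from 0 on the y axis, and some uncalled genes fall far below 0 at 200 nM alone.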

How the data were processed

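The authors prepared 1 RNA-seq library from each of 7 K562 lines. The labels name polyA RNA, and the protocol ribosomal depletion with a directional kit. Alignment by the authors was to hg19 (STAR), and featureCounts and edgeR are named in the submitters' processing notes. The deposited file holds unnormalized gene counts for 25702 gene IDs. Whether the counting used strand is not given in the sources used here. The authors' tables of fold changes and p-values were not used.

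Genes reaching 10 CPM in 2 or more of the 7 libraries were kept. Counts were scaled by TMM and fitted with edgeR 4.0.16 (glmQLFit and glmQLFTest, run in R 4.3.3). Each group had its own coefficient, and late stage was tested against early stage. FDR values are Benjamini-Hochberg adjusted over 10452 genes and a call is an FDR under 0.05. The biological coefficient of variation was 0.161. DESeq2 1.42.0 and limma 3.58.1 (voom) were alternatives, along with other scaling, filters and libraries. Line by line differences used log2 of CPM plus 0.5. P-values measure the spread between these lines, which may be technical, and limits of 3 counts cover counting error only.

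The lines, gene lists and named genes were chosen with earlier results of these data known. Named were the 12 genes with the smallest p in each direction with a log2 difference of at least 1 and no overlap, up to 6 called members of a list, the study's candidates, genes around ABCG2, BCR and ABL1, and the most abundant members. Other names, among them single uncalled genes given as values and those on gaps between the late stage lines, were chosen after their values were seen. Lists were described by counts beside all genes, with no set test. An annotation of GRCh37 (hg19) placed 10086 of the tested genes. Simulated counts for 10452 genes gave 49 and 46 of 50 calls for changes of 1 and -1, and 50 of 50 for 2 and -2, with 8 unchanged genes called. Every gene was simulated with the same biological coefficient of variation and no difference between the lines of a stage. The counts therefore do not give the share found among real genes with a wider spread, such as ABCG2, which was not called. Some genes that met the naming rule are not reported here.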

Additional observations from a re-analysis of the deposited data

How the results depend on the processing

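Under the alternatives run for each, none of the 184 named genes changed the sign of its difference, of which 178 were called. Where the stages do not overlap, leaving out 1 of their lines could not change it, so this is no sign of stability. The balance of counts did turn, since genes lower outnumbered genes higher without the 50 nM line (1117 against 913), and late stage lines lay above for 2805 and below for 2761 genes without TMM. The count of 1328 genes called (690 higher, 638 lower) was 2193 (1099 and 1094) with DESeq2, 2056 (1081 and 975) without a filter, 701 (389 and 312) with the DasR libraries alone, 472 (249 and 223) with a log2 difference of at least 1, and 0 in each direction at an FDR of 0.005, where limma-voom also called 0, with 3450 genes at an unadjusted p under 0.05 by edgeR and 3422 by limma-voom. Without genes of chromosomes 15 and 20, an alternative chosen after seeing the data, 413 were called lower. With 1 library left out the count ran from 0 to 2030, from 0 to 913 for genes higher and from 0 to 1117 for genes lower. It was 0 without the 200 nM line, by edgeR (1975 genes at an unadjusted p under 0.05) and by limma-voom (1863), 2030 without the 50 nM line, 474 without the 15 nM line, 461 without the 25 nM line, 724 without the drug naive and 686 without the DMSO line, and where the 50 or 200 nM line was left out the lone late stage line is assumed to vary like the other groups. The cause was not tested. With a limit of 1.5-fold, 518 genes were higher in both late stage lines, 104 at 50 nM only and 456 at 200 nM only, and 473, 76 and 705 were lower. The labels give no replicate numbers, and no paired analysis was possible because the lines carry none. The number of lines and their single libraries limit the precision.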

Other observations

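Respiratory chain and ATP synthase genes had 6 of 77 members called higher (7.79%) and 1 lower (1.30%), beside 6.6% and 6.1% of all genes, with a median difference of 0.19. In 37 of the 77 (48.1%, against 26.4% of all genes) both late stage lines lay above the early stage lines and in 2 (2.60%, against 26.9%) below, and 67 had a positive difference. DESeq2 called 17 higher (22.1%) and 1 lower (1.30%), against its 10.5% of all genes in each direction. Without the 15 nM line edgeR called 0 higher, and its count rests on the 200 nM line too. CYCS had the largest difference of the members called higher, at 427, 382 and 477 CPM in the early and 601 and 711 CPM in the late stage lines. The glucose transporters moved apart, since SLC2A3 was at 86.0, 53.5 and 103 CPM and then at 295 and 385 CPM, while SLC2A1 was at 450, 607 and 491 CPM and then at 307 and 200 CPM. Their differences were 2.08 (SE 0.30) and -1.02 (SE 0.21).

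Among interferon response genes 5 of 32 were called higher (15.6%, against 6.6% of all genes) and 2 lower (6.25%, against 6.1%). The list went both ways, since DESeq2 called 8 higher (25%) and 5 lower (15.6%), against its 10.5% of all genes in each direction. Both late stage lines lay above the early stage lines in 13 (40.6%, against 26.4% of all genes) and below them in 10 (31.25%, against 26.9%). Of the 32, 2 passed the filter only through the early stage lines. The membrane proteins IFITM1, IFITM2 and IFITM3 were among those called higher, with differences of 0.92, 3.03 and 1.05, and their similar sequences make single values uncertain. Of 36 NRF2 antioxidant genes edgeR called 5 higher (13.9%, against 6.6% of all genes) and none lower (6 were lower at an unadjusted p under 0.05). DESeq2 called 10 higher (27.8%) and 3 lower (8.33%), against its 10.5% of all genes in each direction. The 5 called by edgeR include the quinone reductase NQO1 with 0.89 (SE 0.13).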
